A study of Homo sapiens with 6 samples.

Results

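The histone genes of HT-29 xenografts were described: 66 clustered genes, 4 of which GENCODE types as pseudogenes, and 15 variant genes. They are the genes whose symbols begin HIST1H, HIST2H, HIST3H, HIST4H, H2AF, H3F3 or H1F, which left 82 of the 29236 annotated genes of the table once 17 pseudogene symbols had been removed. The remaining member is an antisense RNA, H1FX-AS1, which stayed out of both sets. HT-29 is an established cell line from a human colorectal cancer, and its xenografts are tumours grown from it in a host animal, which the labels do not name. The controls were 3 samples labelled as untreated, and the other 3 samples were labelled as treated with extracorporeal shock waves (ESV), pressure pulses applied from outside the body, at 60 mJ. All 6 samples carried the genotype label WT and the same batch value, and both groups were taken at day 15. Separate animals within a group are not stated in the labels, and p-values therefore measure only the spread between the samples at hand, which may be technical. The comparison asks how transcript levels differ between shock-wave and control tumours.

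Histones are the proteins that package DNA: H2A, H2B, H3 and H4 form the core around which the DNA is wound, and H1 binds the DNA linking neighbouring cores. The clustered genes supply these proteins while DNA is being copied in S phase, and their usual mRNA carries no poly(A) tail and ends just after a short stem-loop that is bound by the protein SLBP. Variant genes lie alone in the genome, are expressed outside S phase as well, and usually give polyadenylated mRNAs whose proteins replace or supplement the clustered kinds at particular places in chromatin.

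The stem-loop letters are shown because they set the clustered mRNAs apart from the variants and because more of the clustered signal lay on transcripts annotated past them than on transcripts ending there. The motif GGCNCTTNTNAGNGCC was searched on the sense strand of 206694 GENCODE release 29 transcripts. It occurred in 69 of them (0.033%), from 48 genes, of which 36 were members: 35 clustered genes and the variant H2AFX. The 7 forms of the 16 stem-loop letters found among members are printed in capitals within their flanks.
HIST3H2A: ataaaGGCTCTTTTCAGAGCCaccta
HIST1H2BD: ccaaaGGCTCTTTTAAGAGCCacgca
HIST1H3E: ccaaaGGCTCTTCTCAGAGCCaacca
HIST2H2BD: ccaaaGGCTCTTTTCAGGGCCactta
HIST1H4J: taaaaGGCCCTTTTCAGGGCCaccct
HIST2H4A: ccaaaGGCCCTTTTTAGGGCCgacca
H2AFX: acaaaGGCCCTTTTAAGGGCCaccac
The form of HIST3H2A was the most common, with 18 genes. The form of HIST1H4J was found in 5 genes and that of HIST2H4A in 3, all of them H4 genes. The form of H2AFX, the variant that marks DNA breaks once phosphorylated, was found in that gene alone among the members.

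Levels are in FPKM, which is per annotated transcript length. Comparisons between genes thus depend on those lengths, such as 381 bases for HIST1H2BK and 2364 for HIST3H2BB. They also depend on how well each mRNA was captured, which was not tested. Recovered totals were 48300000 to 58540000 reads per library, and 12789 to 13433 genes reached 1 FPKM. Colonic epithelial markers summed to 3998 to 5827 FPKM in every library, against at most 0.693 for endothelium, 0.319 for lymphocytes and 0.856 for erythroid genes. Fibroblast markers summed to 25.0, 8.24 and 10.3 FPKM in controls and 3.13, 12.9 and 5.78 FPKM in shock-wave samples, almost all of it COL1A1 and LUM. Macrophage markers summed to 10.4 to 18.5 FPKM, mostly CD68. These are human genes, while vessels, blood and stroma of a xenograft come from the host. Low sums therefore cannot show how many such host cells the samples held. Relative to the mean of all 6 libraries, log2 levels changed by 0.068, 0.068 and 0.055 per doubling of transcript length in control replicates 1 to 3. The changes were -0.050, 0.037 and -0.18 in shock-wave replicates 1 to 3, all below the controls, with the widest departure in replicate 3. The length trend thus differed between the groups, and clustered histones are short. In bulk tumours such as these, fewer cells of a type and less RNA per cell cannot be told apart.

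Variant genes made up most of the histone FPKM. The libraries were made with an mRNA kit, and whether it caught the usual untailed clustered mRNAs equally well was not tested. The summed level of the 15 variants was 1033, 1218 and 1256 FPKM in control replicates 1 to 3, and 1338, 1311 and 1363 FPKM in shock-wave replicates 1 to 3. All 3 shock-wave sums lay above all 3 control sums, with means of 1337 ± 25.9 against 1169 ± 119 FPKM (SD, n = 3 each) and a log2 ratio of 0.19. With each library scaled to the same sum of annotated FPKM, which was highest in shock-wave replicate 3, the variant groups overlapped and the log2 ratio was 0.08. The 66 clustered genes summed to 166.6, 132.8 and 182.0 FPKM in controls and 186.2, 154.7 and 210.8 FPKM in shock-wave samples. Those groups overlapped, at 160.5 ± 25.2 against 183.9 ± 28.1 FPKM (SD, n = 3 each). The log2 ratio of the clustered sums was 0.20, but 0.07 at the same sum per library, 0.08 with control replicate 2 left out and 0.09 with shock-wave replicate 3 left out. Clustered genes held 9.83 to 13.9% of all histone FPKM, so the variants held the rest in every library.

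The balance between clustered and variant genes differed by histone family. H3.3 genes, with H3F3C counted among them, gave 96.3 to 98.7% of the FPKM of H3 genes under the symbol rule. That rule leaves out the H3 variant CENPA, which was at 9.76 to 15.2 FPKM. Variants gave 94.5 to 96.9% of all H1 and 87.1 to 92.3% of all H2A FPKM. H2B and H4 had no variant under the symbol rule, so their sums came from clustered genes alone, with H2B at 61.0 to 81.6 FPKM against 10.7 to 20.8 FPKM for H4.

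**Figure D1:**
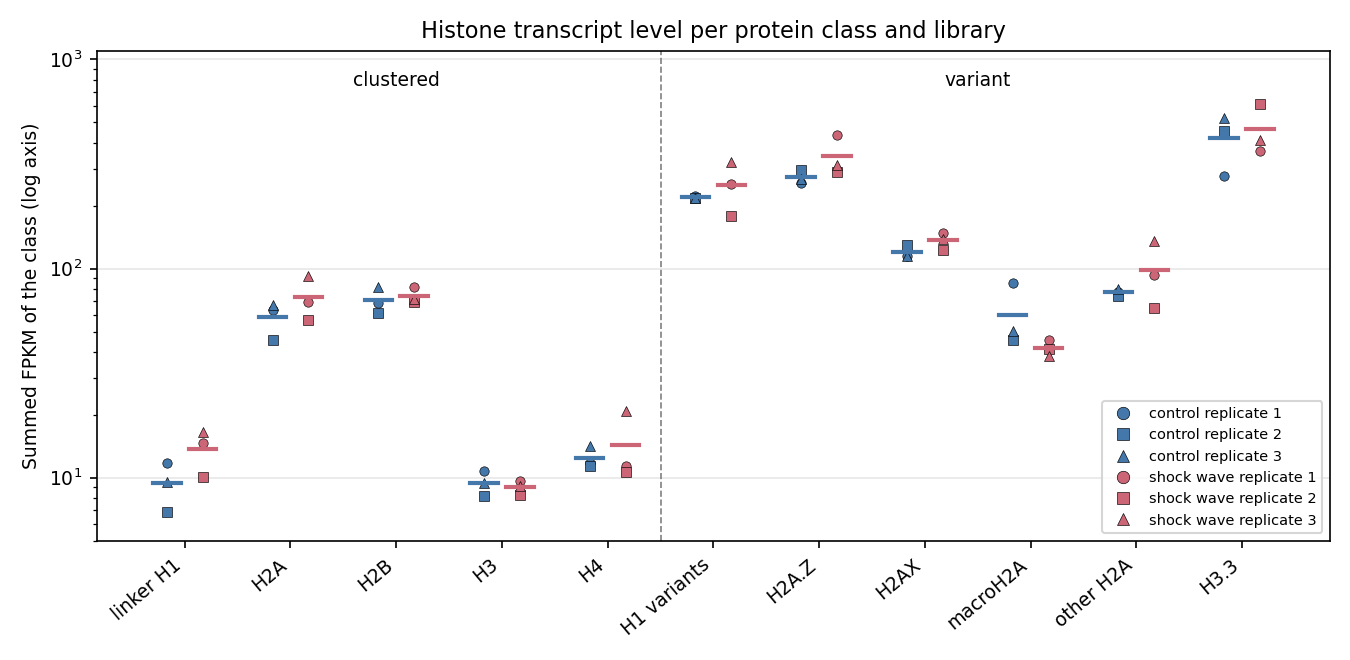
Summed FPKM per library of each clustered and each variant class on a log axis, with 3 control and 3 shock-wave libraries as points and group means as bars. H3.3 and then H2A.Z have the highest means, and among clustered classes H2A and H2B stand above H3, H4 and linker H1 in every library.

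Among clustered genes a few carried most of the signal. HIST1H2BK alone held 19.4 to 26.7% of clustered FPKM, and HIST1H2BK, HIST3H2A, HIST2H2AA3, HIST2H2AA4 and HIST1H1C together held 54.9 to 62.6%. In contrast, 37 of the 66 genes stayed under 1 FPKM in every library and 25 were at 0 in at least 1 library. HIST1H2BK and HIST3H2A were the clustered genes above 10 FPKM in all 6 libraries.

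Linker H1 among the clustered genes was nearly all HIST1H1C (ENSG00000187837, chr6:26055787-26056428, minus strand of hg38, a single exon), which encodes the subtype H1.2. Its level was 11.3, 6.68 and 8.61 FPKM in controls and 13.8, 9.17 and 15.9 FPKM in shock-wave samples. All 3 shock-wave values were above the control mean, yet shock-wave replicate 2 lay below control replicate 1. The log2 change on the log2(FPKM + 1) scale was 0.50 (SE 0.26), with limma's adjusted p = 0.648. The other 4 clustered H1 genes did not reach the tested level.

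Clustered H2A was led by HIST3H2A (ENSG00000181218, chr1:228456979-228457873, minus strand), a gene of the small cluster on chromosome 1. It stood at 25.4, 19.6 and 25.2 FPKM in controls and 29.03, 23.7 and 39.2 FPKM in shock-wave samples. The groups overlapped through shock-wave replicate 2, and the log2 change was 0.36 (SE 0.21, limma adjusted p = 0.648), or 0.17 without shock-wave replicate 3. HIST2H2AA3 (chr1:149842188-149842736, minus strand) had 13.1, 7.25 and 13.7 FPKM against 12.5, 10.8 and 17.5 FPKM. HIST2H2AA4 (chr1:149851061-149851624, plus strand) is a duplicate copy of the same gene, and it stood at 96.5 to 98.4% of HIST2H2AA3 in every library. The 2 symbols are uncertain one by one, because near-identical copies may share reads. Their group means of 11.3 ± 3.55 and 13.6 ± 3.47 FPKM for HIST2H2AA3 (SD, n = 3) differed by less than the spread between replicates.

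Clustered H2B was led by HIST1H2BK (ENSG00000197903, chr6:27146418-27146798, minus strand). It stood at 32.8, 35.5 and 39.1 FPKM in controls and 49.0, 38.7 and 41.0 FPKM in shock-wave samples. Only shock-wave replicate 2 fell within the range of the controls, and the log2 change was 0.25 (SE 0.14, limma adjusted p = 0.648), or 0.15 without shock-wave replicate 1. The annotated HIST1H2BK transcript spans 381 bases and holds no stem-loop letters.

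HIST1H2BD (ENSG00000158373, chr6:26158146-26171349, plus strand) was next, with 6.75, 4.95 and 9.24 FPKM in controls and 8.61, 7.59 and 13.0 FPKM in shock-wave samples. The groups overlapped, and the log2 change was 0.43 (SE 0.28), with limma's adjusted p = 0.649, and 0.22 without shock-wave replicate 3. HIST2H2BE (ENSG00000184678, chr1:149884459-149886652, minus strand) had 5.73, 4.12 and 7.56 FPKM against 5.33, 5.69 and 5.94 FPKM. The 3 shock-wave values of HIST2H2BE lay inside the range of the controls. Other H2B members went the other way by value: HIST1H2BC, HIST2H2BC and HIST2H2BD had the lowest log2 changes of the clustered genes tested, at -0.46, -0.54 and -0.56, and none passed. HIST2H2BC and HIST2H2BD are annotated as pseudogenes in GENCODE despite their symbols.

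Clustered H3 and H4 genes had low FPKM, and the capture of their untailed mRNAs was not tested. HIST1H3E (ENSG00000274750, chr6:26224199-26227473, plus strand) had the highest mean of the H3 genes, at 2.72, 2.19 and 2.85 FPKM in controls and 3.31, 2.75 and 3.07 FPKM in shock-wave samples. HIST1H3H had 1.61, 1.85 and 2.23 FPKM against 2.12, 2.34 and 2.02 FPKM, and HIST1H3D had 2.29, 0.965 and 1.86 FPKM against 1.54, 0.925 and 2.04 FPKM. The groups overlapped in each of the 3 genes. The highest H4 gene, HIST2H4A (ENSG00000270882, chr1:149832659-149834631, plus strand), stood at 3.59, 2.83 and 5.46 FPKM in controls. Its shock-wave values of 1.66, 3.26 and 7.08 FPKM included both the lowest and the highest of the 6 libraries. Its duplicate HIST2H4B (chr1:149859185-149861210, minus strand) had 3.20, 1.84 and 2.56 FPKM against 3.11, 2.29 and 5.97 FPKM, and the split of reads between the copies is uncertain. HIST1H4K had 0.922, 1.44 and 1.99 FPKM against 1.74, 1.51 and 2.57 FPKM, again with overlap.

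**Figure D2:**
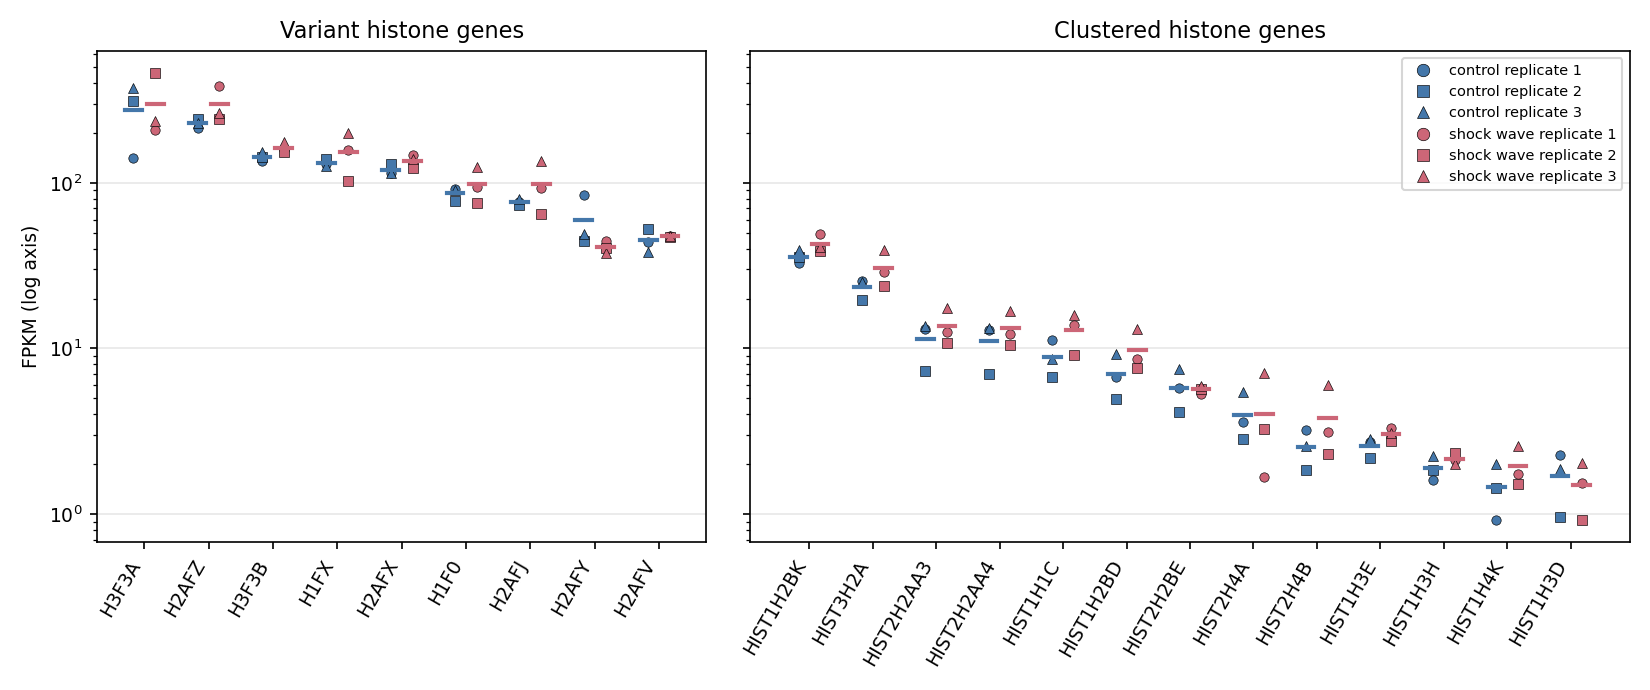
FPKM of the named members in each of the 6 libraries on a log axis, with control and shock-wave points side by side and group means as bars. Apart from HIST1H2BK and HIST3H2A, which reach the range of H2AFY and H2AFV, clustered genes sit below every variant shown, and the groups overlap for every named gene except H3F3B, which overlaps at the same sum per library, and H2AFY.

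The test for a difference ran over all 13448 genes that reached 1 FPKM in 3 or more libraries, and included 25 clustered and 9 variant genes. By limma with Benjamini-Hochberg adjustment at 0.05, 0 of the 34 members passed, as did 0 of all genes tested (0% in each direction), whose smallest adjusted p was 0.134. At an unadjusted p under 0.05, 0 members stood out, where 6.93% of all genes tested did so, 3.17% as higher and 3.76% as lower. By sign, 15 of the 25 clustered genes were higher and 10 lower in shock-wave samples, against 48.4% higher and 51.6% lower among all genes tested. The median log2 change of the clustered genes was 0.13, from -0.56 to 0.53, and that of all genes tested was -0.01. Of the 9 variants, 8 were higher and 1 was lower by sign, with a median log2 change of 0.17. The clustered median was -0.04 after removal of the length trend in each library, 0.01 by voom on recovered reads and 0.06 at the same sum per library. The medians of all genes tested under these settings were 0.03, -0.03 and -0.11. The smallest p among the members was that of HIST1H4J, an H4 gene, at 0.0637 in the limma fit before adjustment.

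**Figure D3:**
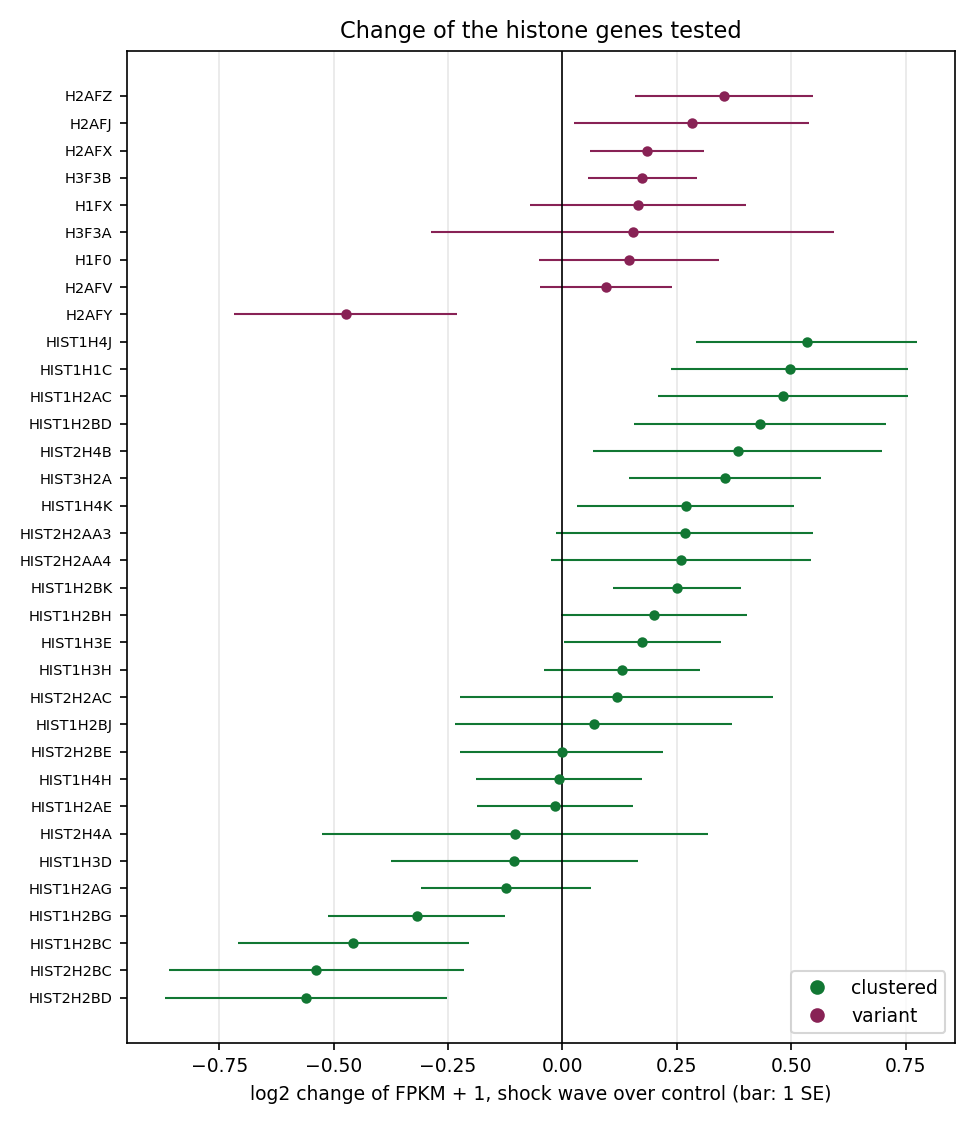
Log2 change of the 34 tested members, shock-wave minus control on the log2(FPKM + 1) scale, with standard errors as bars. Clustered genes run from -0.56 to 0.53, and H2AFY, at -0.47, is the variant below 0.

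Among the tested members, groups that did not overlap were found in variants only. None of the 25 clustered genes had all shock-wave values on a single side of the controls, compared with 7.75% of all genes tested on the higher side and 8.69% on the lower side. Among the 9 variants, H3F3B was higher and H2AFY lower in this sense. Over all listed genes, including those too low to test, 4.97% were separated as higher and 6.37% as lower. By that count 6 of the 66 clustered genes were lower and 1 was higher.

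The separated low genes were picked out after their values were seen. HIST4H4 (chr12:14767999-14771131, minus strand), which encodes H4 from a site outside the large clusters, had 1.06, 1.09 and 0.848 FPKM in controls and 0.525, 0.282 and 0.689 FPKM in shock-wave samples. These values came from 45, 50 and 42 reads against 37, 9 and 23 reads. The coding transcript of HIST4H4, ENST00000539745, had 0.399, 0.156 and 0.179 FPKM in controls and 0.251, 0.282 and 0.592 FPKM in shock-wave samples, with overlap. HIST3H3, the testis H3 gene, had 16, 1 and 5 reads in controls and 0 in each shock-wave library. HIST1H2AM, HIST1H3B, HIST1H4C and HIST2H2AB were likewise lower, from at most 25 reads in any library. HIST1H1D was the higher gene, with 0 reads in each control and 6, 4 and 4 reads in shock-wave samples. Counts this small allow no firm statement about direction.

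The 3' ends of the clustered transcripts were then compared. Transcripts annotated to end within 10 bases after the stem-loop numbered 4, from HIST1H2BE, HIST1H3E, HIST1H4J and HIST3H3. They held 1.72, 1.35 and 1.59 FPKM in controls and 2.37, 1.53 and 2.69 FPKM in shock-wave samples, which was 0.876 to 1.28% of clustered FPKM. Transcripts running beyond the stem-loop numbered 41, from 33 genes, and held 52.2 to 59.5%. The annotated ends lay 390 bases past the letters in HIST3H2A, 35 in HIST2H2AA3 and 1729 in HIST2H2BE. A further 41 transcripts without the motif held 39.5 to 46.5%, and 31 of these were single-exon entries, of which 29 had a length that is a multiple of 3. Entries that hold coding length only say nothing on where the mRNA ended, and those of HIST1H2BK and HIST1H1C are among the 29. The annotation sets these shares in part, and reads were not placed along the transcripts here.

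Transcripts annotated as spliced were also assigned clustered histone FPKM, although the usual clustered mRNA has no intron. They numbered 21, from 11 genes, and held 14.4 to 18.015% of clustered FPKM. The annotation sets part of this share: all 3 listed HIST1H2AC transcripts have 2 exons, so all FPKM of that gene counts here. Reads across exon joins were not examined. In HIST1H2BD the spliced transcript ENST00000289316, which lacks the stem-loop, stood at 6.24, 4.73 and 6.82 FPKM in controls and 8.24, 7.23 and 11.3 FPKM in shock-wave samples. It made up 73.8 to 95.8% of the gene, and its shock-wave values were all above its control values. The other transcript, ENST00000377777, whose letters are printed above, ranged from 0.218 to 2.42 FPKM. Separation on the higher side was found in 6.87% of all 28517 transcripts tested, and on the lower side in 7.34%. It was found in 6 of the 56 member transcripts tested as higher and in 4 as lower, and 0 of the 56 passed limma's adjusted threshold, which 0.0771% of all transcripts tested passed as higher and 0.126% as lower.

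Many H2A and H2B genes are paired head to head, reading away from a shared stretch of promoter. There were 12 such pairs among the members, with 218 to 330 bases between the starts. In 8 pairs at least 1 gene had a mean of 1 FPKM, and in 6 of these 8 the same gene was the higher in all 6 libraries. HIST1H2BK had a mean of 39.3 FPKM and its partner HIST1H2AH 0.0477 FPKM. HIST3H2A had 27.0 FPKM and its partner HIST3H2BB 0.401 FPKM, and the lowest ratio in any library was 30.3. That ratio also carries the annotated lengths, 895 bases for HIST3H2A and 2364 for HIST3H2BB. In the library of the lowest ratio, control replicate 3, the reads were 1089 against 95. The gaps were narrower in the other 4 such pairs: HIST1H2AC at 7.93 FPKM exceeded HIST1H2BC at 2.54, and HIST2H2BE at 5.73 FPKM exceeded HIST2H2AC at 1.59. HIST2H2AA3 and HIST2H2AA4, at 12.5 and 12.1 FPKM, exceeded their pseudogene partners HIST2H2BD and HIST2H2BC at 4.67 and 4.37 FPKM. The H2A gene was the higher in 5 of the 8 pairs and the H2B gene in 3.

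**Figure D4:**
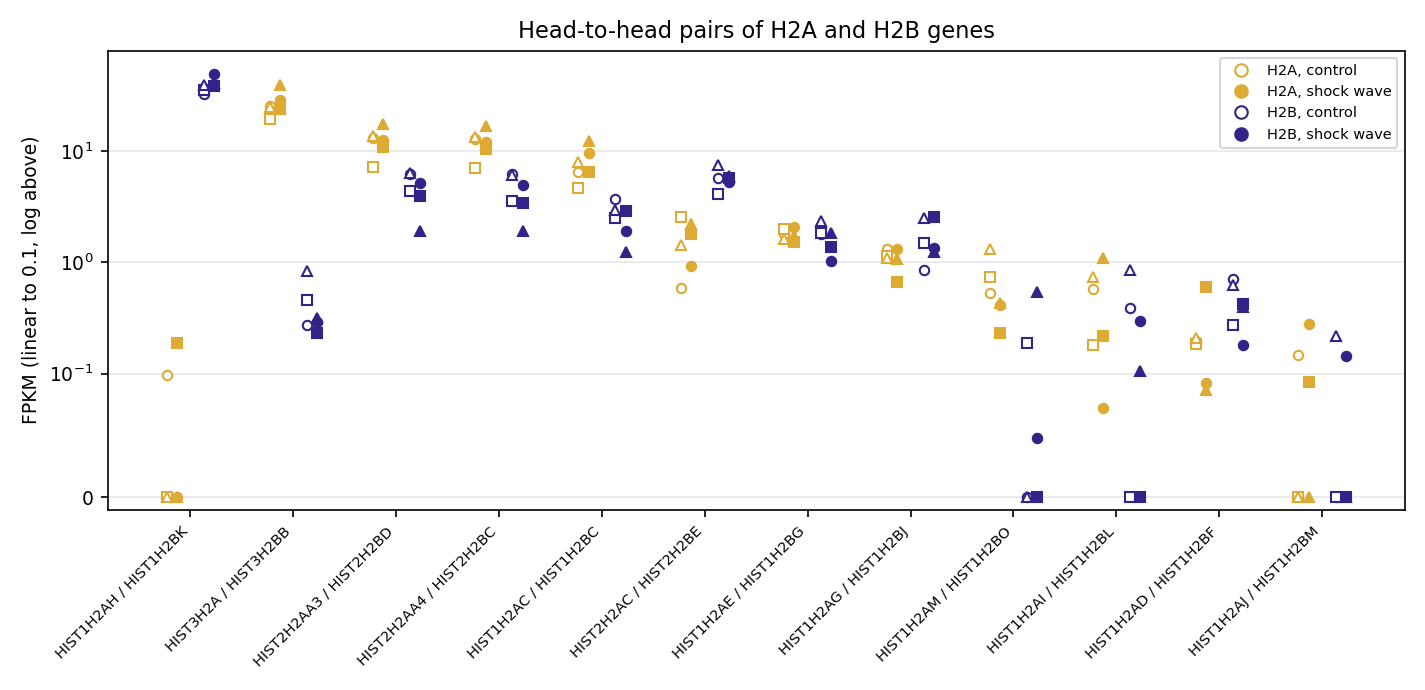
FPKM in each of the 6 libraries of the H2A and H2B genes of each of 12 head-to-head pairs, linear to 0.1 FPKM and logarithmic above, with open symbols for controls and filled ones for shock-wave samples. The widest gap is that of HIST1H2BK over HIST1H2AH, followed by HIST3H2A over HIST3H2BB.

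The stretch between HIST3H2A, which reads to the left, and HIST3H2BB, which reads to the right, is printed because its flanking genes differed so widely in FPKM. It is chr1:228457874-228458102 of GRCh38.p14, plus strand, 229 bases, from RefSeq, with CCAAT in capitals wherever it occurs on either strand (ATTGG on the printed strand).
HIST3H2A to HIST3H2BB: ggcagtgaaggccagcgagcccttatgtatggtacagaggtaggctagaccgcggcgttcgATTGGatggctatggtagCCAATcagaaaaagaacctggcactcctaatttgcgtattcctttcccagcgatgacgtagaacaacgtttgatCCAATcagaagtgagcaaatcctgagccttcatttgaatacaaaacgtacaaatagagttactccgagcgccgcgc
It holds 3 CCAAT matches and no TATAAA match. RefSeq promoters, from 250 bases before to 50 after the start, were found for 66 of the 82 members. CCAAT on either strand was found in 44 of 53 clustered promoters (83.0%) and 10 of 13 variant promoters, against 35.7% of 27305 promoters in all. TATAAA was found in 34 of 53 clustered promoters (64.2%) and 4 of 13 variant promoters, against 11.95% of all. A match describes letters only.

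The variants were ordered by mean level over the 6 libraries as H3F3A (288 FPKM), H2AFZ (263), H3F3B (153), H1FX (143), H2AFX (128), H1F0 (92.4), H2AFJ (87.2), H2AFY (50.2) and H2AFV (46.2). Among neighbours in that order, H2AFZ and H3F3B alone had ranges that did not overlap. The remaining 6 variant genes did not pass the filter, and 5 of them stayed under 1 FPKM in every library.

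H3.3, the H3 variant laid down outside S phase, is encoded with the same protein by H3F3A and H3F3B. H3F3A (ENSG00000163041, chr1:226061851-226072001, plus strand) stood at 141, 313 and 372 FPKM in controls and 208, 460.2 and 236 FPKM in shock-wave samples. This was a wide spread within both groups, and by limma the log2 change was 0.15 (SE 0.44, adjusted p = 0.906). H3F3B (ENSG00000132475, chr17:75776434-75785893, minus strand) was far steadier, at 136, 142 and 154 FPKM against 157, 154 and 177 FPKM. All 3 shock-wave values of H3F3B were above all 3 controls, the closest by less than 1 FPKM, and the log2 change was 0.17 (SE 0.12, limma adjusted p = 0.656). At the same sum per library the H3F3B groups overlapped, with a log2 change of 0.06.

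The spread of H3F3A was also seen in its single transcripts. ENST00000366815 had 115, 306 and 314 FPKM in controls and 190, 383 and 173 FPKM in shock-wave samples. ENST00000366816 had 16.7, 0 and 47.0 FPKM against 8.73, 0 and 55.3 FPKM, so both samples numbered 2 were at 0. ENST00000366814 was at 54.3 FPKM in shock-wave replicate 2 and 5.61 to 8.59 FPKM elsewhere. The pseudogene H3F3AP4, left out by the rule, was at 56.4 FPKM in control replicate 3 and at most 0.0933 FPKM elsewhere. Whether reads were shared between H3F3AP4 and H3F3A was not tested.

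H2A.Z, a variant found at the starts of active genes, is encoded by H2AFZ and H2AFV. H2AFZ (ENSG00000164032, chr4:99948086-99950388, minus strand) had 213, 242 and 229 FPKM in controls and 386, 242 and 266 FPKM in shock-wave samples. Shock-wave replicate 1 was well above the rest while replicate 2 lay within the control range, and the log2 change was 0.35 (SE 0.19, limma adjusted p = 0.648). It was 0.15 without shock-wave replicate 1 and 0.14 under quantile normalization. H2AFV (chr7:44826791-44848083, minus strand) had 43.8, 52.7 and 38.1 FPKM against 47.9, 46.8 and 48.0 FPKM, with the shock-wave values inside the control range.

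H2AX, the variant phosphorylated at DNA breaks, comes from H2AFX (ENSG00000188486, chr11:119093854-119095467, minus strand). Its level was 114, 130.1 and 115 FPKM in controls and 147, 123 and 139 FPKM in shock-wave samples. The groups overlapped through control replicate 2 and shock-wave replicate 2, and by limma the log2 change was 0.19 (SE 0.12, adjusted p = 0.655).

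MacroH2A, an H2A with a large added domain that is enriched on silent chromatin, comes mainly from H2AFY (ENSG00000113648, chr5:135333900-135399914, minus strand). Its level was 84.3, 44.8 and 49.2 FPKM in controls and 44.8, 40.6 and 37.5 FPKM in shock-wave samples. All shock-wave values were below the controls, the closest pair being nearly equal, and the log2 change was -0.47 (SE 0.24, limma adjusted p = 0.648). Without control replicate 1, the log2 change was -0.20. H2AFY2, the other macroH2A gene, was at 0.668 to 0.816 FPKM.

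Of the remaining variants, H2AFJ (chr12:14774383-14778002, plus strand), which encodes H2A.J, had 76.9, 73.4 and 79.8 FPKM against 93.0, 64.6 and 136 FPKM. H1FX (chr3:129314771-129316277, minus strand), which encodes the linker histone H1.X, had 130.2, 139.8 and 126 FPKM against 158, 103 and 199 FPKM. H1F0 (chr22:37805093-37807436, plus strand), the linker histone of resting and differentiated cells, had 91.4, 77.9 and 91.1 FPKM against 94.4, 75.1 and 124 FPKM. In all 3 genes shock-wave replicate 3 was the highest of the 6 libraries and shock-wave replicate 2 the lowest. Their log2 changes were 0.28, 0.17 and 0.15, and none passed. Without shock-wave replicate 3 those of H2AFJ, H1FX and H1F0 were 0.02, -0.05 and -0.04.

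Single transcripts of 2 variants had the smallest p-values among the members. In H2AFX, the spliced transcript ENST00000375167, of the nonsense-mediated decay type, had 13.3, 11.8 and 8.75 FPKM in controls and 20.4, 17.7 and 19.2 FPKM in shock-wave samples. Its log2 change was 0.73 (SE 0.21), with limma's unadjusted p = 0.0125 and adjusted p = 0.638 over all transcripts. As a share of the gene it was 11.7, 9.07 and 7.62% against 13.8, 14.3 and 13.9%. The coding transcript of H2AFX, ENST00000530167, had 101, 118 and 106 FPKM against 127, 106 and 119 FPKM, with overlap.

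In H2AFZ, the retained-intron transcript ENST00000511319 had 9.28, 12.8 and 11.5 FPKM in controls and 27.5, 16.7 and 14.6 FPKM in shock-wave samples. Its log2 change was 0.72 (SE 0.28), with limma's unadjusted p = 0.0426 and adjusted p = 0.752. The groups overlapped at the same sum per library. Its share of the gene was 4.35, 5.28 and 5.01% against 7.12, 6.91 and 5.50%. These were the 2 member transcripts of 56 with an unadjusted p under 0.05, where 3.05% of all transcripts tested were so as higher and 3.53% as lower.

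In H2AFY, 18 transcripts were listed and 2 of them had nearly equal means, the retained-intron form ENST00000511494 at 10.1 FPKM and the coding ENST00000312469 at 9.98 FPKM. The retained-intron form was the lower of the pair in control replicate 1 and shock-wave replicate 3. Transcripts of protein-coding type summed to 24.9, 9.55 and 13.7 FPKM in controls and 15.5, 11.95 and 14.5 FPKM in shock-wave samples, with overlap. The other types summed to 59.4, 35.2 and 35.5 FPKM against 29.3, 28.7 and 23.0 FPKM, with every shock-wave value below the controls. Coding types thus made up 29.6, 21.3 and 27.8% of H2AFY in controls and 34.6, 29.4 and 38.6% in shock-wave samples. ENST00000508785 was at 15.9 FPKM in control replicate 1 and at most 3.26 FPKM in any other library.

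**Figure D5:**
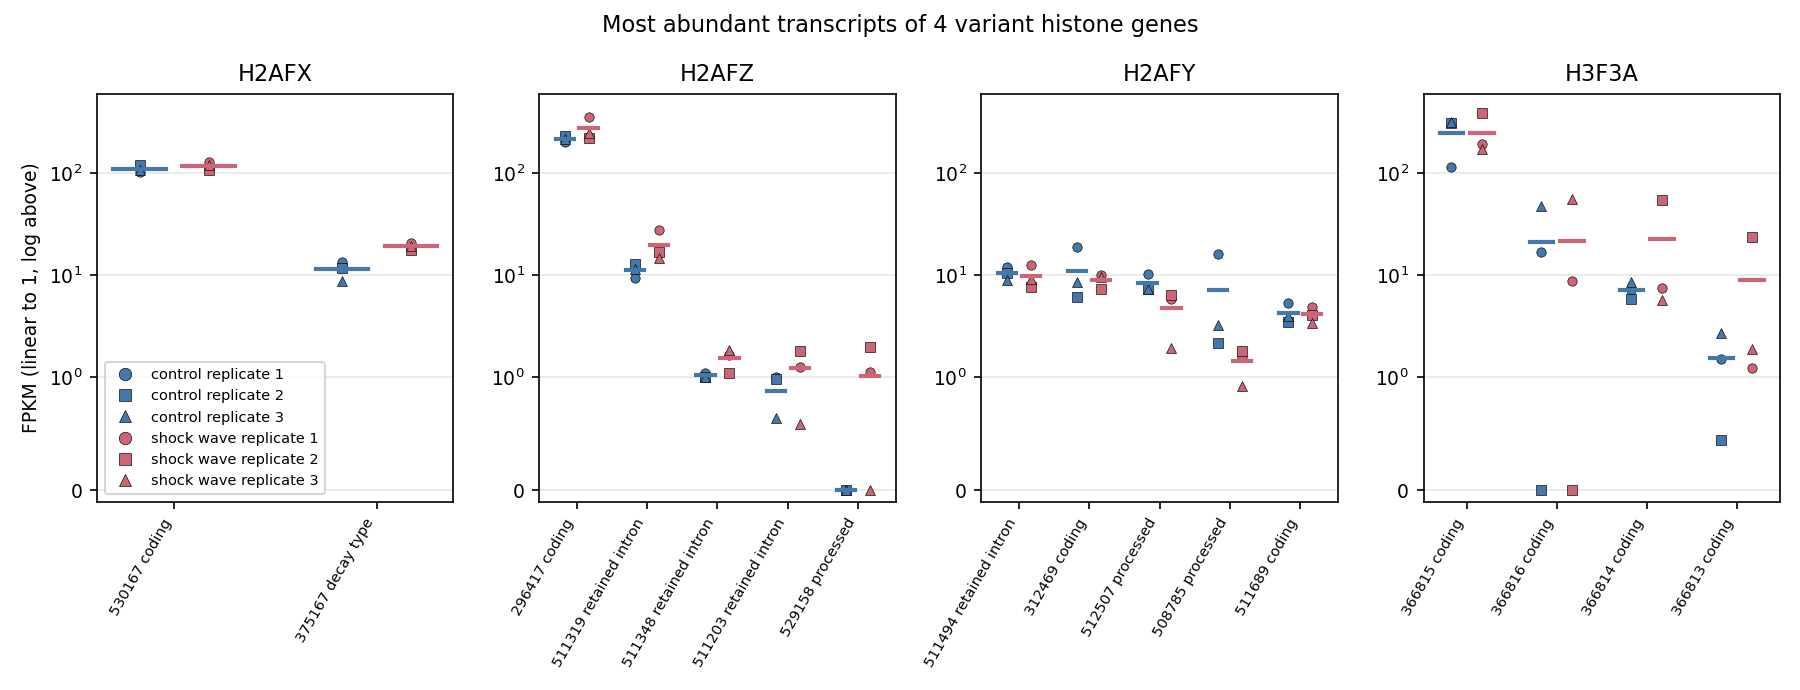
FPKM of the most abundant transcripts of H2AFX, H2AFZ, H2AFY and H3F3A in each library, linear to 1 FPKM and logarithmic above, with group means as bars and the last 6 digits of the Ensembl transcript identifier and its type as labels. The decay-type H2AFX transcript and the retained-intron H2AFZ transcript lie higher in all 3 shock-wave libraries than in any control, the latter not so at the same sum per library.

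A list of 38 genes, most of which make, process, carry or deposit histones, was examined, and all of them were tested. It also held the H3 variant CENPA and the chromatin insulator protein CTCF. By sign 11 were higher and 27 lower in shock-wave samples, against 51.6% lower among all genes tested, with a median log2 change of -0.13, and 0 passed adjustment. At limma's unadjusted p under 0.05, which 6.93% of all genes tested met, LSM10 was higher, and SRCAP and SSRP1, singled out after their values were seen, were lower. SLBP, which binds the stem-loop, had 26.2, 52.9 and 35.4 FPKM in controls and 36.0, 28.6 and 63.7 FPKM in shock-wave samples. NPAT, the coactivator of clustered histone genes, had 4.88, 6.05 and 5.28 FPKM against 5.41, 5.92 and 3.73 FPKM. Neither gene separated the groups. LSM10, a subunit of the U7 particle that cuts histone pre-mRNA, had 24.0, 22.6 and 25.0 FPKM against 31.8, 27.8 and 36.5 FPKM. Its groups did not overlap, and the log2 change was 0.40 (SE 0.14, limma adjusted p = 0.648).

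On the lower side, 5 genes of the list were separated, ATRX, IPO9, ZNF473, CABIN1 and CTCF, where 8.69% of all genes tested were. With each library scaled to the same sum of FPKM, CTCF overlapped and the other 4 did not. ATRX, part of an H3.3 deposition complex, had 16.2, 17.0 and 17.0 FPKM in controls and 14.8, 14.2 and 8.77 FPKM in shock-wave samples. IPO9, an importin that carries histones, had 10.3, 10.3 and 10.5 FPKM against 9.05, 8.74 and 7.14 FPKM. ZNF473, a factor in histone pre-mRNA processing, had 9.98, 8.92 and 9.64 FPKM against 8.31, 8.14 and 4.81 FPKM. CABIN1, of the complex that deposits H3.3 with HIRA, had 13.3, 11.7 and 12.2 FPKM against 10.6, 11.6 and 5.68 FPKM. CTCF, a chromatin insulator protein, had 13.1, 13.7 and 12.3 FPKM against 12.2, 12.3 and 8.06 FPKM. Shock-wave replicate 3 had the lowest value in all 5 genes, and it was also the library in which levels decreased most steeply with transcript length. The length trend was lower in every shock-wave library than in any control. The part of that trend in these values was not tested.

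Genes active in S phase, when clustered histones are made, were listed beside them. Of 27 tested, 10 were higher and 17 lower by sign, against 48.4% and 51.6% of all genes tested, with a median log2 change of -0.03, and 0 passed adjustment. PCNA, the sliding clamp of the replication fork, had 90.4, 118 and 92.6 FPKM in controls and 129, 113 and 128 FPKM in shock-wave samples. MKI67, the proliferation marker Ki-67, ran from 2.43 to 28.4 FPKM in controls and from 2.59 to 6.60 FPKM in shock-wave samples. RFC4 and TK1, of clamp loading and thymidine salvage, were higher without overlap, at 11.5, 12.7 and 15.5 against 18.3, 17.2 and 18.2 FPKM and at 75.1, 88.3 and 80.2 against 98.3, 95.8 and 96.1 FPKM. TYMS, thymidylate synthase, was lower without overlap, at 65.3, 78.7 and 67.0 against 63.4, 62.4 and 62.7 FPKM. Of all genes tested, 7.75% were separated as higher and 8.69% as lower, and at the same sum per library RFC4 and TK1 overlapped.

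RNAs that carry no poly(A) tail were listed beside the clustered histones, because the libraries were made with an mRNA kit. Of 23 such RNAs, 13 were in the table, and their sum was 122, 62.2 and 203 FPKM in controls and 216, 193 and 106 FPKM in shock-wave samples. RN7SL2, an RNA of the signal recognition particle, had 70.6, 36.7 and 122 FPKM against 125, 126 and 53.0 FPKM. RN7SL1, of the same particle, had 46.7, 14.0 and 73.5 FPKM against 78.3, 63.6 and 40.4 FPKM. SCARNA12, a guide RNA of Cajal bodies, had 1.49, 4.81 and 2.99 FPKM against 8.19, 1.01 and 3.73 FPKM. In control replicate 2, which had the lowest of these sums, the clustered histone sum was the lowest as well. Shock-wave replicate 3 had the highest clustered sum and the next lowest sum of these RNAs. Whether carry-over of untailed RNA took part in the clustered values was not tested.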

How the data were processed

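RNA was taken up in Trizol and libraries were built with a SMARTER mRNA kit, per the labels' protocols. The authors deposited 1 table of 131516 transcripts in 6 sample columns. The deposited values, normalized by the authors for length and depth, were taken as FPKM, since multiplication by transcript length gave whole reads: of values worth 0.5 to 100 reads, 99.64 to 99.70% were within 0.05 of a whole number. The submitters' processing notes name the build hg38. Not given in the sources used here are the aligner, the quantification program and any removal of host reads. Groups came from the treatment label, because both groups' titles contain the abbreviation con.

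FPKM of 116485 annotated transcripts were summed per symbol, and 15031 assembled transcripts were left out. Genes that reached 1 FPKM in 3 or more samples were tested on log2(FPKM + 1) by limma 3.58.1 (R 4.3.3), with its trend option, no covariate and Benjamini-Hochberg adjustment over all of them (threshold 0.05). That scale understates changes of low genes. The procedure was tested on simulated data. Sums over members were given no test. Stem-loops came from GENCODE release 29 transcripts and promoters from RefSeq (GRCh38.p14). Alternatives were scalings, filters, a pseudocount of 0.1, no trend, voom on recovered reads, length-trend removal, a replicate block, each replicate left out and, chosen after seeing the data, transcripts in place of genes, sums without pseudogene types and, for separated groups, scaling to the same sum.

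The members and gene lists were chosen with earlier results of these data known, as was the limit of 10 bases after the stem-loop. Named members are up to 3 per class with the highest mean, of at least 1 FPKM, and tested members with groups that do not overlap. SLBP, NPAT, PCNA, MKI67 and the 3 most abundant untailed RNAs were named whatever their result, as were up to 4 separated genes per direction of the other lists.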

Additional observations from a re-analysis of the deposited data

How the results depend on the processing

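No member passed the adjusted threshold under any alternative. For the 22 named members, limma's adjusted p ran from 0.322 to 1.0. Of 240 values of these named members under settings able to move them, 217 kept their direction. Over all genes, 0 were called by limma (932 at an unadjusted p under 0.05), against 2 by voom on recovered reads, 58 with transcripts in place of genes (22 higher, 36 lower, 0 members) and 0 to 5 with a replicate left out. The 5 arose without shock-wave replicate 2 and 1 without shock-wave replicate 3. The clustered median log2 change of 0.13 was -0.037 after length-trend removal, 0.0083 by voom, 0.0012 with no filter, 0.055 at the same sum per library and 0.05 to 0.22 with a replicate left out. The variant median of 0.17 was 0.013 under quantile normalization, 0.043 at the same sum per library, which put the median of all genes at -0.11, and 0.089 to 0.26 with a replicate left out. The log2 ratio of variant sums of 0.19 was 0.081 at the same sum per library and 0.11 to 0.25 with a replicate left out, and that of clustered sums was 0.071 at the same sum and 0.08 to 0.31 with a replicate left out. Direction reversed for 10 of the 22 named members. Under quantile normalization HIST2H2BE was 0.076, H1F0 -0.00161 and H3F3A -0.043. After length-trend removal HIST1H2BK was -0.037, HIST1H4K -0.055 and HIST2H2BE 0.033. HIST2H2BE was 0.004213 with a pseudocount of 0.1 and 0.001386 by voom, HIST2H4A was 0.015 by voom, and H2AFV was -0.018 at the same sum. With a replicate left out, HIST2H2AA4 ran from -0.014 to 0.41, HIST2H2BE from -0.19 to 0.18, HIST1H3D from -0.32 to 0.072, HIST2H4A from -0.53 to 0.28, H1FX from -0.047 to 0.42, H1F0 from -0.040 to 0.32, H2AFV from -0.013 to 0.22 and H3F3A from -0.27 to 0.43. The causes of these changes were not tested. Same-numbered samples deviated from their group means with correlations of -0.01, -0.01 and 0.03, so no pairing by number was seen. These correlations cannot exclude a shared origin of same-numbered samples. With the replicate block 0 genes were called by limma. In that fit 963 of 13448 genes had an unadjusted p under 0.05, HIST1H1C and HIST1H2AC among them. The same held for 1943 of 13448 genes, 8 of them members, in the limma fit without shock-wave replicate 2. With no filter it held for 1585 of 29236 genes, 5 of them members. In this balanced design a block leaves the log2 changes as they are, so the medians of 0.13 and 0.17 are the same by construction. With 3 samples a group, levels under about 1 FPKM rest on few reads in short genes, and small differences there were not detectable at this depth.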

Other observations

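The antisense RNA H1FX-AS1 and the pseudogene symbols removed by the rule belong to neither set. The 17 pseudogene symbols summed to 19.1 to 78.8 FPKM per library. H3F3AP6 was at 10.6 to 14.3 FPKM in every library, which is near the level of the clustered genes HIST2H2AA3 and HIST1H1C.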
